A study of Homo sapiens with 8 samples.

Results

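The RAB proteins are the largest family of small GTPases. Each RAB switches between a GTP-bound form, which sits on a membrane and recruits effectors such as tethers and motors, and a GDP-bound form that is extracted into the cytosol. Exchange factors load GTP, GTPase-activating proteins (GAPs) end the signal, and different RABs mark different compartments of the secretory and endocytic routes. The RAB genes were taken as all genes whose single annotated symbol is RAB, a number and at most one further letter, each represented by the transcript cluster (the probe set that summarizes 1 gene) with the highest mean signal. This gave 60 genes of the 18417 genes with a cluster of 1 symbol. Of these, 59 are protein-coding, and RAB1C is annotated as a pseudogene whose probes may also take up RNA of close RAB1 copies. RAB34, RAB4B, RAB6C and RAB6D share their clusters with other symbols and were not included, and RAB6A has close copies that its probes may not separate.

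The cells were 786-O, an established renal cell carcinoma (RCC) line without functional VHL, the protein that directs the HIFα subunits to degradation in the presence of oxygen. VHL- cells were the untransfected line, and VHL+ cells were stable bulk transfectants with an expression vector for VHL. Both were kept for 24 h under normoxia or hypoxia (1% O2), which makes 4 groups with 2 biological replicates each, measured on 8 Affymetrix Human Gene ST arrays. Since untransfected cells were the VHL- cells on the arrays, an effect of VHL and one of transfection or selection cannot be told apart.

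The array medians lay between 6.60 and 6.91 on the log2 scale. The signal of VHL itself was 8.24 and 8.43 in normoxic and 8.23 and 8.51 in hypoxic VHL- cells. It was 8.85 and 8.86 in normoxic and 9.08 and 9.16 in hypoxic VHL+ cells, so that no VHL+ array overlapped a VHL- array. The renal carcinoma markers PAX8, PAX2, KRT8, KRT18, VIM and CDH2 lay above the median of every array, whereas PTPRC, CD3E, CD14, PECAM1, CDH5, COL1A2 and PDGFRB lay below it on all 8 arrays. COL1A1, a fibroblast collagen, was an exception, above the median of every array with 7.21 to 7.78. EPCAM, an epithelial marker, had 6.71 to 7.21 in VHL- and 5.83 to 6.18 in VHL+ cells, and its part in the results was not tested. As a check of the oxygen conditions, NDRG1, a hypoxia-induced gene, was examined. It rose under hypoxia by 1.07 in VHL- cells (limma adjusted p = 0.00489) and by 2.28 in VHL+ cells (limma adjusted p = 1.48e-07) on the log2 scale. With the arrays set to 1 common distribution (quantile normalization), the rises were 1.12 and 2.13. Only the rise in VHL+ cells then passed (limma adjusted p = 0.0129, beside 0.228 in VHL- cells).

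To find RAB genes that differ between the cell types, VHL+ and VHL- cells were compared over both oxygen conditions, with oxygen as a covariate. RAB31, RAB3B, RAB29, RAB38 and RAB36 rose most in VHL+ cells, and RAB2B, RAB27B and RAB42 fell. In all, 17 of the 60 RAB genes rose and 3 fell at a limma adjusted p under 0.05, where 19.7% of all genes passed, 14.9% higher and 4.79% lower. Of the 60 RAB genes, 44 lay above the median of all 8 arrays. The shares given here for all genes are not matched for signal, so both sets may differ in how readily genes are called. The median log2 fold change was 0.17 for the RAB genes and 0.07 for all genes. When the arrays were set to 1 common distribution by quantile normalization, 16 RAB genes rose and 8 fell, where 21.4% of all genes passed, 11.9% higher and 9.45% lower, and the medians were 0.08 and 0.01. Of the 20 calls, 18 were also made after quantile normalization (15 higher and 3 lower), while RAB18 and RAB21 were not. Without VHL+ hypoxia replicate 1 the count was 11 in place of 20. All VHL+ arrays lay above all VHL- arrays for 15 RAB genes (13.9% of all genes) and below them for 5 (4.14% of all genes), and the other 40 overlapped. As bulk RNA was measured, a difference in the share of cells with a transcript and one in RNA per cell cannot be told apart.

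RAB31, a GTPase of transport between the trans-Golgi network and endosomes, had log2 signals of 6.65 and 6.50 in normoxic and 6.41 and 6.62 in hypoxic VHL- cells. In VHL+ cells its signals were 9.99 and 10.24 without and 10.00 and 10.17 with hypoxia. All VHL- arrays were thus below the median of their own array and all VHL+ arrays far above it, with no visible influence of oxygen. RAB31 rose 11.8-fold with VHL over both oxygen conditions (log2 fold change 3.56 ± 0.11 SE, n = 4 arrays per cell type, limma adjusted p = 1.14e-18). After quantile normalization the log2 fold change over both oxygen conditions was 3.46 (limma adjusted p = 7.74e-07). As deposited, the log2 fold changes under normoxia and hypoxia were 3.54 and 3.57. They remained between 3.42 and 3.68 when any 1 array was left out, and the call was kept each time. Whether the VHL- signal of RAB31 lay above background was not tested, so its fold may be a lower bound.

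RAB3B, which acts in regulated exocytosis, had signals of 8.04 and 7.13 in normoxic and of 8.06 and 7.18 in hypoxic VHL- cells, beside 8.76 and 9.36 in normoxic and 9.10 and 9.54 in hypoxic VHL+ cells. The cell types did not overlap, but replicates differed more than for the other RAB genes described here, replicate 2 being lower in VHL- and higher in VHL+ cells. Its increase was 3.00-fold over both oxygen conditions (log2 fold change 1.59 ± 0.18 SE, limma adjusted p = 2.96e-07). Taken apart, the log2 fold changes were 1.47 under normoxia (limma adjusted p = 0.00324) and 1.70 under hypoxia (limma adjusted p = 0.000638). After quantile normalization both single comparisons missed the threshold at log2 fold changes of 1.45 and 1.43 (limma adjusted p = 0.109 and 0.112), while the one over both oxygen conditions passed (limma adjusted p = 0.00998). Both single calls were also lost without VHL+ hypoxia replicate 1 and without VHL+ hypoxia replicate 2. The log2 fold change under normoxia does not use these arrays, so that call was lost only through the spread estimated over all groups.

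RAB29, which acts at the Golgi and lysosomes and recruits the kinase LRRK2, had signals of 7.83 and 8.02 in normoxic and of 7.64 and 8.0 in hypoxic VHL- cells, beside 8.84 and 9.22 in normoxic and 9.11 and 9.39 in hypoxic VHL+ cells. The lowest VHL+ array thus lay well above the highest VHL- array. RAB29 rose 2.41-fold over both oxygen conditions (log2 fold change 1.27 ± 0.12 SE, limma adjusted p = 1.79e-08), with log2 fold changes of 1.11 under normoxia and 1.43 under hypoxia. Both of these calls were kept after quantile normalization and whichever array was left out.

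RAB36, a Golgi-associated RAB, had signals of 6.88 and 6.84 in normoxic and of 6.64 and 6.73 in hypoxic VHL- cells, beside 7.32 and 7.52 in normoxic and 7.73 and 7.81 in hypoxic VHL+ cells. Here the hypoxic arrays lay below the normoxic ones in VHL- cells and above them in VHL+ cells. The same held for RAB11A, RAB20, RAB24 and RAB8A. The share of all genes with this pattern was not counted, so it is not shown to be particular to RAB genes. The median of all genes moved likewise with hypoxia, by -0.11 in VHL- and 0.11 in VHL+ cells on the log2 scale. The log2 fold change of RAB36 with VHL was 0.56 ± 0.13 SE under normoxia (limma adjusted p = 0.0189) and 1.08 ± 0.13 SE under hypoxia (limma adjusted p = 4.76e-05). The difference between them, tested as the interaction, did not pass (0.52, limma adjusted p = 0.651). After quantile normalization the values under normoxia and hypoxia were closer, at 0.61 and 0.86. As deposited, the call under normoxia was lost on leaving out any of 5 arrays, whereas that under hypoxia was kept each time. Among the 5 were VHL+ hypoxia replicate 1 and replicate 2, which the log2 fold change under normoxia does not use. Without these, only the spread estimated over all groups had changed.

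RAB38, which with RAB32 serves the biogenesis of melanosomes and other lysosome-related organelles, had signals of 7.08 and 7.59 in normoxic and of 7.24 and 7.85 in hypoxic VHL- cells, beside 7.81 and 8.27 in normoxic and 8.62 and 8.52 in hypoxic VHL+ cells. The lowest VHL+ array was just below the highest VHL- array. RAB38 rose with VHL over both oxygen conditions (log2 fold change 0.86 ± 0.14 SE, limma adjusted p = 5.79e-05) and under hypoxia (1.02, limma adjusted p = 0.00291), but the value of 0.70 under normoxia missed the threshold (limma adjusted p = 0.0535). The hypoxia call was lost after quantile normalization (limma adjusted p = 0.0955) and without VHL+ hypoxia replicate 1 or replicate 2 (limma adjusted p of up to 0.222).

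RAB2B, a RAB of the Golgi, had signals of 8.47 and 8.59 in normoxic and of 8.51 and 8.62 in hypoxic VHL- cells, beside 7.67 and 7.98 in normoxic and 8.05 and 7.95 in hypoxic VHL+ cells. Every VHL+ array was below every VHL- array, and RAB2B fell by 0.64 on the log2 scale (SE 0.11, limma adjusted p = 9.98e-05). RAB27B, which like RAB27A docks secretory vesicles and multivesicular bodies for release, had signals of 7.77 and 7.28 in normoxic and of 7.36 and 7.59 in hypoxic VHL- cells, beside 6.70 and 6.96 in normoxic and 7.0 and 6.80 in hypoxic VHL+ cells. The groups were again separate, and RAB27B fell by 0.63 on the log2 scale (SE 0.12, limma adjusted p = 0.000331). Both genes also fell in each oxygen condition taken alone. RAB2B did so in both scalings, whereas RAB27B missed the threshold under normoxia after quantile normalization at a similar log2 fold change (-0.68 beside -0.70, limma adjusted p = 0.0558). Each single call was lost without 3 or 4 of the arrays in turn, among them VHL+ hypoxia replicate 1 and replicate 2. The log2 fold changes under normoxia do not use these named arrays. Without them, the normoxia calls were lost only through the spread estimated over all groups.

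**Figure D1:**
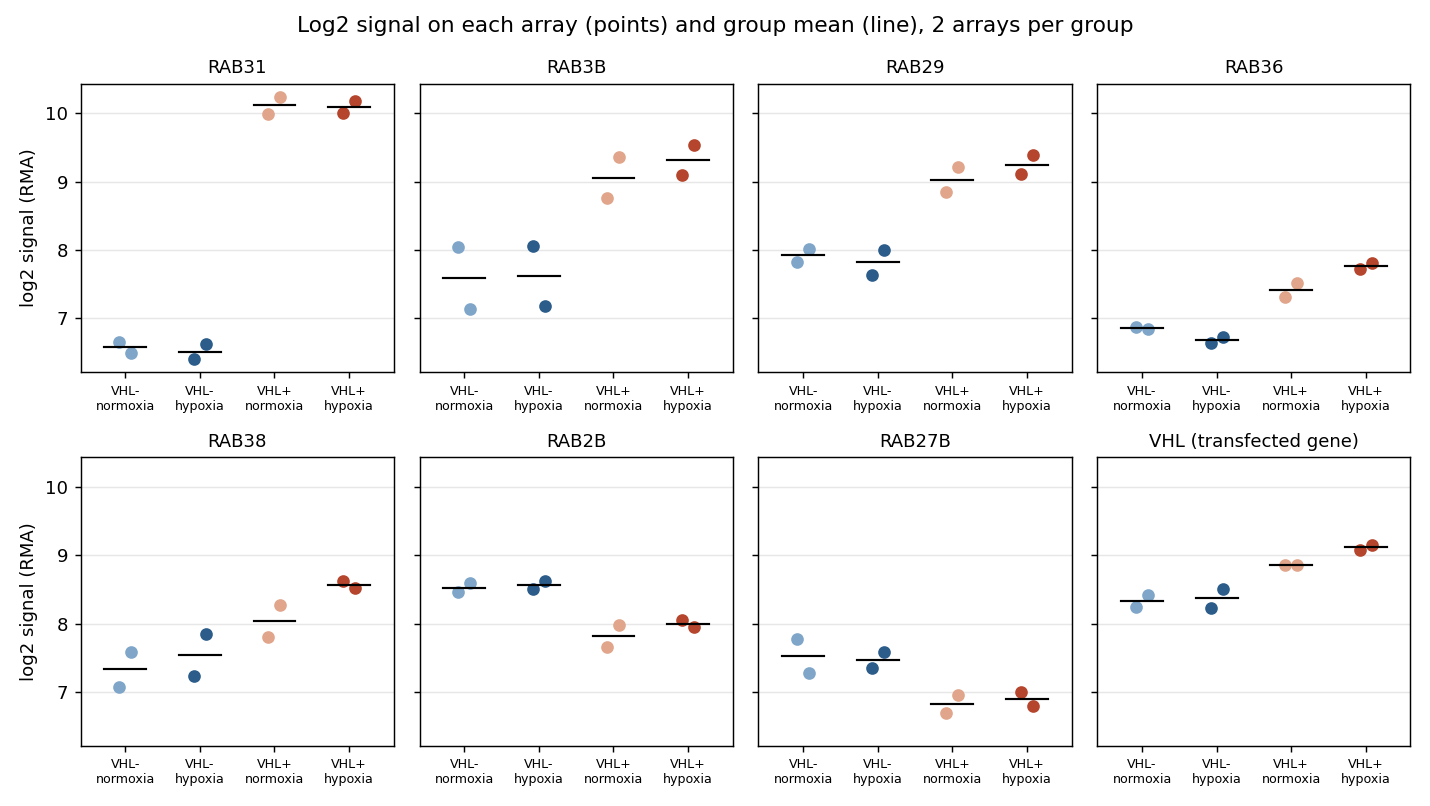
Log2 signal (vertical axis) of 7 RAB genes and of VHL on each of the 8 arrays, by group (horizontal axis). Points are arrays and lines are means of 2 arrays. RAB31 is at 6.41 to 6.65 in VHL- and at 9.99 to 10.24 in VHL+ cells, RAB38 overlaps slightly between the cell types, and RAB2B and RAB27B are lower in VHL+ cells. Signals of different genes come from different probes and are not comparable with each other.

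The promoters of the RAB genes that changed most are given with the letters to which HIF binds, as VHL controls HIF. The 250 bases upstream of the annotated start were read from RefSeq (GRCh38.p14), which had a window for 46 of the 60 RAB genes, RAB36 and RAB38 not among them. Each sequence runs 5′ to 3′ on the strand of the gene and ends next to the start. Capitals mark the core of the hypoxia response element, ACGTG or GCGTG, on either strand (CACGT or CACGC when read from the other strand). The windows are chr18:9708051-9708300 (plus strand) for RAB31, chr1:51990701-51990950 (minus strand) for RAB3B, chr1:205775483-205775732 (minus strand) for RAB29, chr14:21476960-21477209 (minus strand) for RAB2B and chr18:54717607-54717856 (plus strand) for RAB27B.
RAB31: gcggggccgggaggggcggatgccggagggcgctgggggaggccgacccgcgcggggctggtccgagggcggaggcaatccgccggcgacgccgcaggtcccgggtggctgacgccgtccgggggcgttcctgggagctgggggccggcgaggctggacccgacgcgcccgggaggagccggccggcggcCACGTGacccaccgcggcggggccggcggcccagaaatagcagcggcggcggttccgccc
RAB3B: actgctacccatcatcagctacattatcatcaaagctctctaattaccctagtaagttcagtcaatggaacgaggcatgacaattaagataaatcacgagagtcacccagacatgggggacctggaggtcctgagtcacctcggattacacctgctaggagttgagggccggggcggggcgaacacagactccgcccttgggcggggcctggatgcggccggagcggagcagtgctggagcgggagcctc
RAB29: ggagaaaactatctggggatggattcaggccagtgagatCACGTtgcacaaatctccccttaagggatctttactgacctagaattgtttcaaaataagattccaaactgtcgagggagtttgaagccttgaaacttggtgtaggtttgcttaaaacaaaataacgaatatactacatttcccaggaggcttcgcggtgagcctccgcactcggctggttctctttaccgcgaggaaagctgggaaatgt
RAB2B: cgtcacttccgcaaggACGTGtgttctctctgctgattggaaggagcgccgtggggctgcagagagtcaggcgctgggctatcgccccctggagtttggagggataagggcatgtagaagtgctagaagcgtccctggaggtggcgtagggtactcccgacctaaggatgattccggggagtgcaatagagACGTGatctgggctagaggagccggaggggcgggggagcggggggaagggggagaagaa
RAB27B: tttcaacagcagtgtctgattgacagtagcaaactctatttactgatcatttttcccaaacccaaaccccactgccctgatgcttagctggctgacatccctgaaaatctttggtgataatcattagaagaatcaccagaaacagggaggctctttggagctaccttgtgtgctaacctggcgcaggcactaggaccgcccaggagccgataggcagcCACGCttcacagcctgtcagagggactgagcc

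RAB31 carries CACGTG, 60 bases upstream of the start, which holds the core on both strands and is also an E-box. RAB29 has 1 core, 211 bases upstream, RAB2B has 2, at 234 and 59 bases, and RAB27B has 1, at 32 bases. None of these letters occurs in the window of RAB3B, the gene with the second largest change. The core is frequent: it was found in 50.5% of the windows of 15843 protein-coding genes and in 24 of the 46 RAB windows. A match in letters does not show binding.

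**Figure D2:**
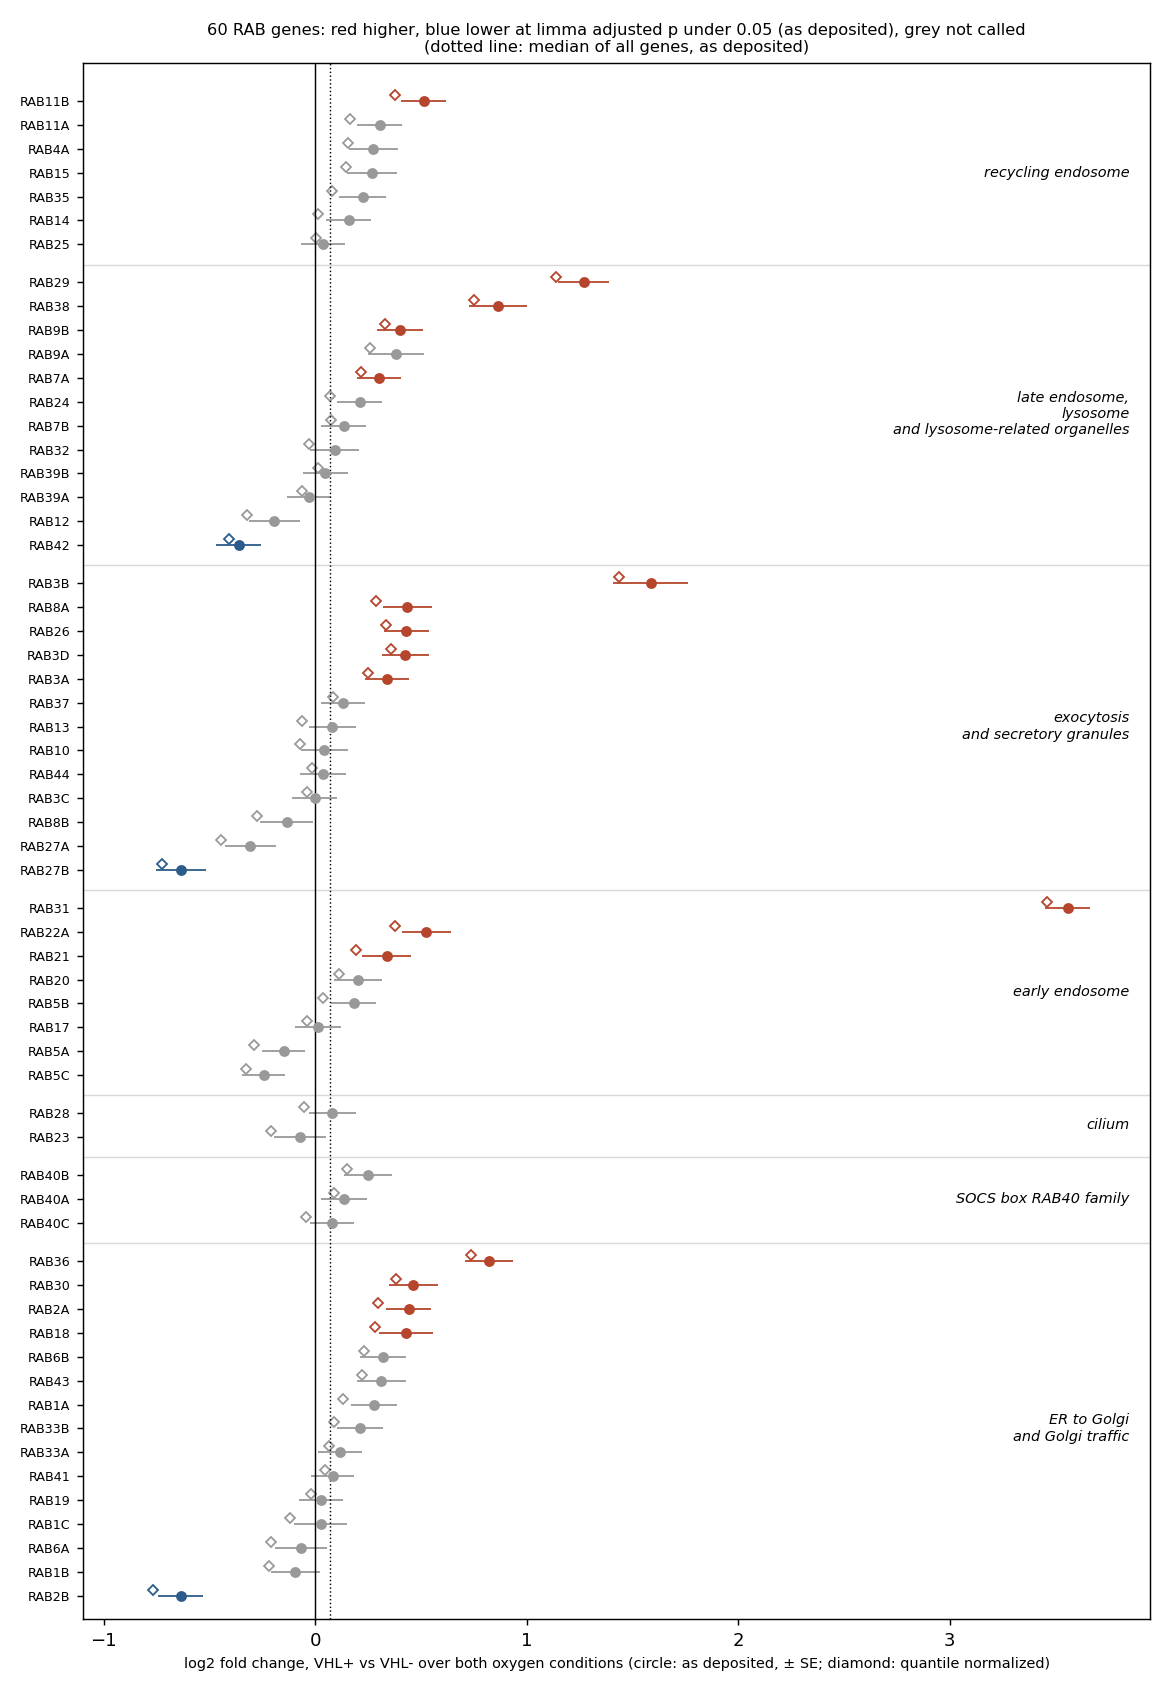
Log2 fold change with VHL (VHL+ minus VHL-) over both oxygen conditions (horizontal axis) for the 60 RAB genes, grouped by the compartment they are best known for. Circles are values as deposited with the SE, diamonds values after quantile normalization. Red and blue mark genes called higher and lower. RAB31 stands apart at 3.56, followed by RAB3B and RAB29, and RAB2B and RAB27B are lowest.

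The remaining changes are described by compartment. The counts stand beside 14.9% higher and 4.79% lower among all genes, and with so few genes per compartment they do not set compartments apart. Of 8 RABs of the early endosome, RAB31, RAB22A and RAB21 rose. RAB22A, a relative of RAB31 and a described HIF target, had a log2 fold change of 0.53 (limma adjusted p = 0.00189), lost without VHL+ hypoxia replicate 1 (limma adjusted p = 0.061). RAB21, which acts in integrin traffic, was at the threshold (0.34, limma adjusted p = 0.0491) and was not called after quantile normalization. RAB5A, the RAB that marks the early endosome, had -0.15 (limma adjusted p = 0.498), although its arrays of VHL+ cells all lay below those of VHL- cells. RAB5C had -0.24 (limma adjusted p = 0.13). After quantile normalization both fell, by 0.29 and 0.33 on the log2 scale (limma adjusted p = 0.0156 and 0.00503). RAB20, a further described HIF target, had signals of 7.15 and 7.20 in normoxic and of 6.81 and 7.04 in hypoxic VHL- cells, beside 7.03 and 7.29 in normoxic and 7.37 and 7.32 in hypoxic VHL+ cells. It did not pass with VHL (0.20, limma adjusted p = 0.333).

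Of 12 RABs of late endosomes, lysosomes and related organelles, RAB29, RAB38, RAB9B and RAB7A rose and RAB42 fell. RAB7A, the organizer of late endosomes, passed narrowly (0.30, limma adjusted p = 0.0498), and the call was lost without any of 7 arrays (limma adjusted p of up to 0.294). A dimmer, unused cluster of RAB7A had 0.44. RAB9B, which serves the way from late endosomes to the Golgi, had 0.40 (limma adjusted p = 0.0107). RAB42, below the array median on 7 of 8 arrays, fell by 0.36 on the log2 scale (limma adjusted p = 0.0204), a call lost without any of 6 arrays (limma adjusted p of up to 0.171). RAB32, the closest relative of RAB38, had 0.09 (limma adjusted p = 0.847), and -0.03 after quantile normalization.

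In the recycling endosome, RAB11B was the only one of 7 RABs called over both oxygen conditions in either scaling (0.51, limma adjusted p = 0.00125). It was kept whichever array was left out. RAB11A, the usual marker of this compartment, had 0.30 (limma adjusted p = 0.0572), although all of its VHL+ arrays lay above its VHL- arrays. RAB25, its epithelial relative, lay below the median of every array.

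Of 13 RABs of exocytosis and secretory granules, RAB3B, RAB8A, RAB26, RAB3D and RAB3A rose and RAB27B fell. RAB8A, which guides vesicles to the plasma membrane and the cilium, had 0.43 (limma adjusted p = 0.0102), a call lost without any of 3 arrays (limma adjusted p of up to 0.121). RAB26 and RAB3D, both of secretory granules, each had 0.43 (limma adjusted p = 0.00476 and 0.00797). RAB3D was lost without VHL+ hypoxia replicate 1 (limma adjusted p = 0.0568). RAB3A, known from synaptic vesicles, had 0.34 (limma adjusted p = 0.0251) and was lost without any of 6 arrays (limma adjusted p of up to 0.148). RAB27A had -0.31 (limma adjusted p = 0.106). It passed after quantile normalization (-0.44, limma adjusted p = 0.00828), after median centring (-0.37, limma adjusted p = 0.0362) and without VHL- hypoxia replicate 1 (-0.38, limma adjusted p = 0.0434). RAB8B passed after quantile normalization (-0.28, limma adjusted p = 0.0494).

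Of 15 RABs of ER to Golgi and Golgi traffic, RAB36, RAB30, RAB2A and RAB18 rose and RAB2B fell. RAB30 had 0.46 (limma adjusted p = 0.0058), lost without VHL+ hypoxia replicate 1 (limma adjusted p = 0.0805), and RAB2A had 0.44 (limma adjusted p = 0.00409), kept whichever array was left out. RAB18, a RAB of the ER and lipid droplets, had 0.43 (limma adjusted p = 0.0196), but 0.28 after quantile normalization (limma adjusted p = 0.15). It was also lost without any of 3 arrays (limma adjusted p of up to 0.225). RAB1A, needed for transport from the ER to the Golgi, had 0.28 (limma adjusted p = 0.104). None of the 2 ciliary RABs and of the 3 RAB40 genes, which carry a SOCS box, was called in either scaling. RAB40C had 0.08 as deposited and -0.04 after quantile normalization.

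The effect of VHL was then examined for each oxygen condition. Under normoxia 4 RAB genes rose (RAB31, RAB3B, RAB29 and RAB36) and 2 fell (RAB2B and RAB27B), that is 6 of 60, where 6.57% of all genes passed, 3.17% higher and 3.4% lower. Under hypoxia 21 rose and 2 fell, where 16% of all genes passed, 14.3% higher and 1.72% lower. All 6 genes called under normoxia were also called under hypoxia. The count under hypoxia goes along with a shift of all genes: their median log2 fold change was 0.18 under hypoxia and -0.03 under normoxia, and that of the RAB genes was 0.30 and 0.04. After quantile normalization the medians of all genes were 0.01 in both. The RAB calls were then 4 higher and 2 lower under normoxia (7.63% of all genes passed, 4.03% higher and 3.59% lower) and 6 higher and 5 lower under hypoxia (7.8% passed, 4.19% higher and 3.62% lower), of which 4 and 8 were among the calls made as deposited. RAB31, RAB29 and RAB36 rose and RAB2B fell in both oxygen conditions in both scalings.

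The 15 RAB genes whose hypoxia call was not made after quantile normalization had log2 fold changes from 0.45 (RAB3A) to 1.70 (RAB3B) as deposited and from 0.19 (RAB1A) to 1.43 (RAB3B) after it. RAB11A went from 0.47 to 0.19 and RAB9A from 0.60 to 0.34, while RAB3B and RAB38 (1.02 to 0.78) kept most of their change. The fit after quantile normalization also had fewer prior degrees of freedom (2.82 in place of 14). The counts as deposited also changed when single arrays were left out. Under both oxygen conditions they were lowest without VHL+ hypoxia replicate 1 or replicate 2. The log2 fold changes under normoxia do not use these arrays, so that count fell only through the spread estimated over all groups. Without VHL- hypoxia replicate 1 the count under hypoxia was also lower. No RAB gene passed the test of the interaction of VHL and hypoxia (limma, lowest adjusted p = 0.651), where 0% of all genes passed. At an unadjusted p under 0.05 there were 5 (RAB8A, RAB8B, RAB15, RAB20 and RAB36), beside 1079 of all genes, and 2 after quantile normalization, beside 478. A different effect of VHL under normoxia and hypoxia was therefore not shown for any of the RAB genes.

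**Figure D3:**
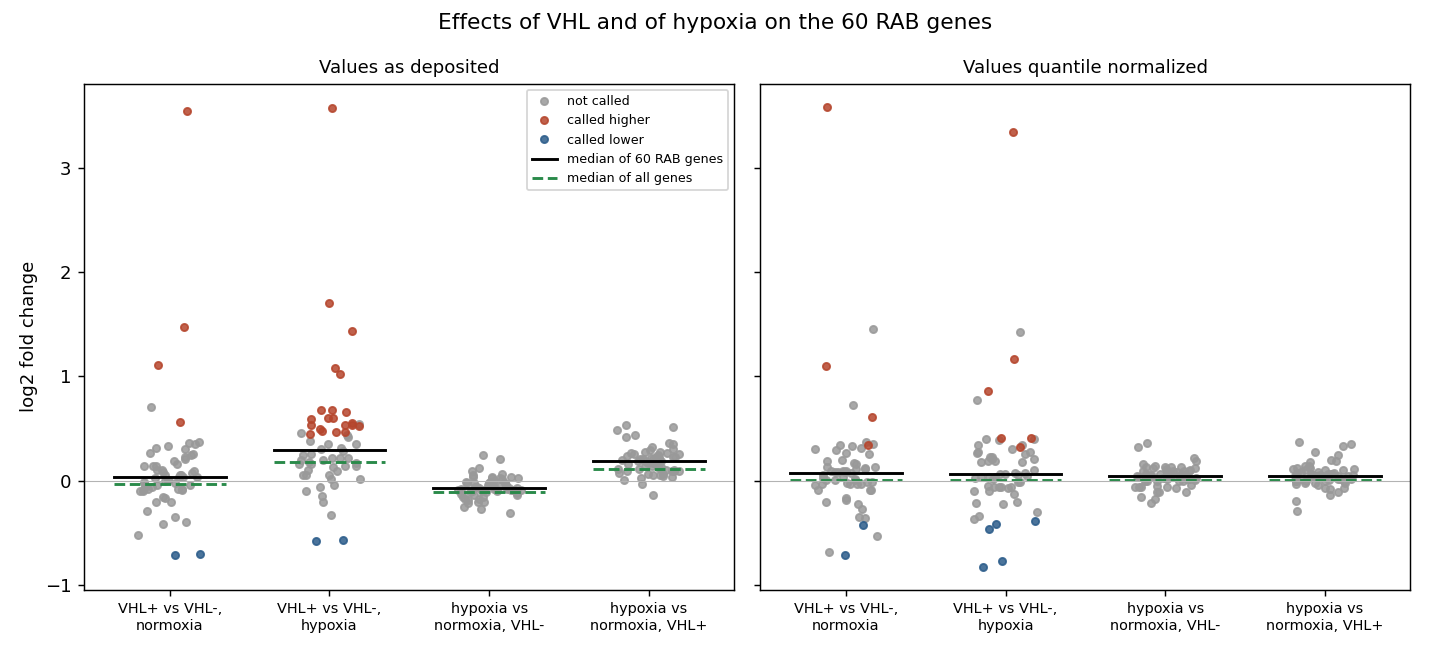
Log2 fold changes (vertical axis) of the 60 RAB genes for VHL under each oxygen condition and for hypoxia in each cell type, as deposited (left) and after quantile normalization (right). Points are genes, solid lines medians of the RAB genes and dashed lines medians of all genes. As deposited, 21 RAB genes are called higher with VHL under hypoxia and the median of all genes is 0.18. After quantile normalization 6 are called higher and that median is 0.01.

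Hypoxia itself was followed by no call among the RAB genes. In VHL- cells, 0 of 60 passed (limma, lowest adjusted p = 0.806), where 0.076% of all genes did, and 0 reached an unadjusted p under 0.05, beside 759 of all 18417 genes. The log2 fold changes ran from -0.31 for RAB13 to 0.25 for RAB6A. In VHL+ cells, 0 of 60 passed (limma, lowest adjusted p = 0.366), where 0.244% of all genes did, with 8 at an unadjusted p under 0.05, beside 1511 of all genes, and values between -0.13 for RAB13 and 0.53 for RAB38. Over both cell types, 0 passed (limma, lowest adjusted p = 0.597), where 0.233% of all genes did, and 3 had an unadjusted p under 0.05, namely RAB38, RAB5B and RAB6A, beside 1004 of all genes. The one-way test of the methods called 0 in each of these comparisons, too. The medians of the RAB genes were -0.07 in VHL- and 0.19 in VHL+ cells, beside -0.11 and 0.11 for all genes. The described HIF targets RAB20 and RAB22A had -0.25 and -0.10 in VHL- cells (limma adjusted p = 0.806 and 0.822) and 0.19 and 0.21 in VHL+ cells (limma adjusted p = 0.931 and 0.924).

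Finally, the proteins that control the RAB cycle and those that read it were examined with lists of 99 measured genes. Over both oxygen conditions 21 rose in VHL+ cells and 5 fell, and after quantile normalization 20 rose and 11 fell. This compares with 14.9% and 4.79% of all genes as deposited, and with 11.9% and 9.45% after quantile normalization. Without VHL+ hypoxia replicate 1 the count was 13 in place of 26. For hypoxia over both cell types, limma called 0 of the 99 (lowest adjusted p = 0.171), where 0.233% of all genes passed. At an unadjusted p under 0.05 there were 4, beside 1004 of all 18417 genes, and the one-way test of the methods also called 0.

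Of 31 GAPs, 9 rose (29%) and none fell, beside 14.9% higher and 4.79% lower among all genes. TBC1D2, a GAP for RAB7, rose most, by 1.28 on the log2 scale (SE 0.16, limma adjusted p = 2.11e-06). Its relative TBC1D2B had 0.58 (limma adjusted p = 0.00111), TBC1D1, which acts on RABs of glucose transporter vesicles, had 0.63 (limma adjusted p = 0.000158), and TBC1D14, which binds RAB11, had 0.59 (limma adjusted p = 0.000692). TBC1D2B was lost without VHL+ hypoxia replicate 1 (limma adjusted p = 0.0602), and the other GAPs named were kept. After quantile normalization 7 GAPs rose and 2 fell. Of 27 exchange factors, 6 rose (22.2%) and 3 fell (11.1%), and after quantile normalization 7 rose and 4 fell. Among all genes, 11.9% were higher and 9.45% lower after quantile normalization. Classes of this size give imprecise shares. RIN2 and RIN1, which act on RAB5 and its relatives, fell by 0.84 and 0.44 on the log2 scale (limma adjusted p = 1.6e-05 and 0.00455). RAB3IP, the exchange factor for RAB8, rose by 0.73 (limma adjusted p = 0.000181) and DENND1B, which acts on RAB35, by 0.61 (limma adjusted p = 0.00053). All of these calls were kept whichever array was left out.

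Of 35 effectors, 5 rose and 2 fell, a share of 20% beside 19.7% of all genes. After quantile normalization 6 rose and 5 fell. RABEP1 (rabaptin-5), which links RAB5 and RAB4, rose by 0.72 (limma adjusted p = 0.000228), and RAB11FIP2, a partner of RAB11, by 0.65 (limma adjusted p = 0.000549). OCRL, a phosphoinositide phosphatase bound by several RABs, rose by 0.54 (limma adjusted p = 0.000983). MYO5B, a motor for RAB11 vesicles, fell by 0.64 on the log2 scale (limma adjusted p = 0.00298), and so did MLPH, which ties RAB27 to myosin V, by 0.45 (limma adjusted p = 0.00278). MLPH was chosen after its value had been seen. RABEP1, RAB11FIP2 and MYO5B were lost without VHL+ hypoxia replicate 1 (limma adjusted p = 0.0514, 0.0512 and 0.145). Of 6 genes for prenylation and membrane extraction, RABIF, a RAB chaperone, rose (0.39, limma adjusted p = 0.0128), but not after quantile normalization (limma adjusted p = 0.0765) nor without VHL+ normoxia replicate 2 (limma adjusted p = 0.0524).

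**Figure D4:**
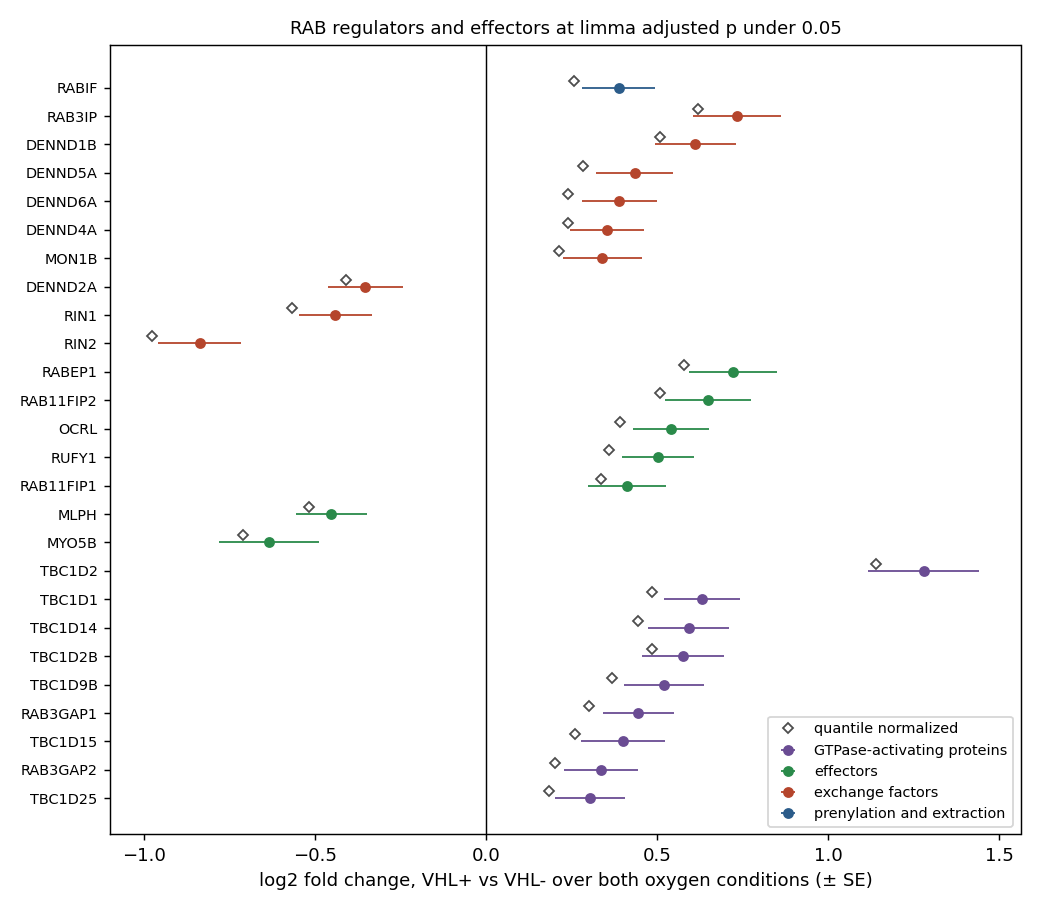
Log2 fold change with VHL (VHL+ minus VHL-) over both oxygen conditions (horizontal axis) of the 26 RAB regulators and effectors called as deposited. Circles are values as deposited with the SE, coloured by class, and diamonds values after quantile normalization. All called GAPs are higher in VHL+ cells, with TBC1D2 at 1.28, while RIN2, RIN1 and DENND2A are lower among the exchange factors and MYO5B and MLPH among the effectors.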

How the data were processed

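Total RNA of 786-O cells had been amplified and hybridized to Affymetrix gene arrays. The authors made 1 log2 signal for each transcript cluster by Robust Multichip Average (RMA), using Partek software, and these log2 values were deposited. All 33297 clusters were fitted with limma 3.58.1 (R 4.3.3). Comparisons of groups and the interaction used 1 mean per group with contrasts (4 residual, 14.0 prior degrees of freedom). Effects over all arrays used a fit with both factors (5 residual, 20.7 prior degrees of freedom). P values were adjusted by Benjamini and Hochberg over all clusters, with a threshold of 0.05. The groups share this spread, and p values measure the spread between replicates as the labels name them. The fit with both factors takes same-numbered arrays of a cell type as independent. Where such arrays deviate together, its SE and p values may be too small.

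Symbols came from the array's annotation, where 19460 clusters have 1 symbol, 1754 several and 12083 none. All 60 RAB genes matched RefSeq by gene ID. Members and lists were chosen with earlier results of these data known. RAB genes called in any comparison could be named. Values on every array were given for those called with a log2 fold change of at least 1 in any VHL comparison, and in addition, outside this rule, for RAB2B, RAB27B and RAB20. RAB5A, RAB7A, RAB11A, RAB1A, RAB20, RAB22A, RAB31, RAB38, RAB32, RAB27A, RAB27B, RAB25, RAB3A and RAB40C were always named, and up to 4 called genes of each regulator list, by size. RAB40A, like RAB6A, has a close copy and was not described.

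Alternatives were the one-way test of the methods, quantile normalization, median centring, dim clusters left out, the mean of a gene's clusters, the replicate number as a block and each array left out. Quantile normalization with the block was added after the data had been seen. Fits were tested on simulated data. Some of the listed markers and comparison genes are not reported here. The number of arrays limits the precision. No build is named for the array files, so gene coordinates were not used except for the RefSeq windows.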

Additional observations from a re-analysis of the deposited data

How the results depend on the processing

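Compared with 20 RAB genes called for VHL over both oxygen conditions, the methods' one-way test gave 11 at an unadjusted p under 0.005 and 5 after Benjamini-Hochberg adjustment, and leaving out single arrays gave 11 to 28. For VHL under normoxia (6) these tests gave 1 and 0, and leaving out arrays 2 to 8. For VHL under hypoxia (23) they gave 4 and 0, quantile normalization 11, median centring 8, quantile normalization with the replicate block 15, and leaving out arrays 3 to 27. The interaction had 0 calls, while the one-way test over the 4 groups, which is not a test of the interaction, called 2. Hypoxia had 0 calls, with 0 to 2 in VHL+ cells (2 without VHL+ normoxia replicate 2) and 0 to 1 over both cell types (1 without VHL- normoxia replicate 2) when arrays were left out. The 26 regulators and effectors called for VHL became 11 and 5 by the methods' test and 13 to 32 with arrays left out. Those called for hypoxia (0) became 1 with the replicate block and 0 to 2 with arrays left out.

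In a fit that takes the replicate number as block, 8, 26 and 22 RAB genes were called for VHL under normoxia, under hypoxia and over both. The deviations of same-numbered arrays from their group means correlated positively between all groups, but in 2 of 6 pairs of groups by less than 0.1 (0.0503 and 0.0658, the others 0.169 to 0.605), and the labels name no shared culture or day, so the numbers were not taken as a pairing. With the block RAB38 passed under normoxia (limma adjusted p = 0.000309) and RAB7A did not pass over both oxygen conditions (limma adjusted p = 0.0604). Of uncalled genes, RAB32 turned to -0.031 and RAB40C to -0.043 after quantile normalization, with and without the block. RAB25 turned to -0.024 after median centring and to -0.027 without VHL+ hypoxia replicate 1, in a range up to 0.080 with single arrays left out. The difference of VHL effects between RAB9A and RAB9B (-0.019) ranged from -0.095 to 0.075 with single arrays left out, and was positive without VHL- normoxia replicate 2, VHL- hypoxia replicate 2, VHL+ normoxia replicate 1 or VHL+ normoxia replicate 2. In each comparison of 2 groups, leaving out an array leaves 1 array in a group, whose spread is taken from the other groups. Where that group is outside the comparison, the log2 fold change stays as it was. Calls then change only through the spread estimated over all groups. The causes were not tested. With 2 arrays per group, small changes, dim RAB genes and differences between oxygen conditions cannot be judged firmly.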

Other observations

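VHL effects were compared between relatives within the RAB family, and no difference passed its test. The difference of the log2 fold changes over both oxygen conditions was 1.08 for RAB2A minus RAB2B, -1.25 for RAB3A minus RAB3B, 3.03 for RAB31 minus RAB22A, 0.77 for RAB38 minus RAB32 and 0.57 for RAB8A minus RAB8B. Of 16 pairs of relatives compared by a two-sided exact permutation test over the 70 splits of the 8 arrays, 8 had the smallest p the design allows (0.0286). The closest pairs were RAB9A minus RAB9B (-0.02, exact p = 0.914), RAB3A minus RAB3D (-0.08, exact p = 0.457) and RAB5A minus RAB5C (0.10, exact p = 0.200). None passed after Benjamini-Hochberg adjustment over the pairs (lowest adjusted p of the permutation test 0.0571). However large its difference, a pair could pass only if more of the pairs were at the smallest p. No conclusion on single pairs is drawn from this test. The differences were nearly the same after quantile normalization for the 5 pairs named first, at 1.06, -1.19, 3.08, 0.78 and 0.56.

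In other families of small GTPases, genes were also called with VHL over both oxygen conditions, where 19.7% of all genes were. As deposited, 14.9% were higher and 4.79% lower. In the RAS family 4 of 25 measured genes rose and 2 fell, and in the ARF family 3 of 13 rose and 1 fell. After quantile normalization the higher and lower calls were 4 and 3, and 1 and 2, respectively, where 11.9% of all genes were higher and 9.45% lower. DIRAS2, of the RAS family, rose by 1.05 (limma adjusted p = 1.97e-07) and was named after its value had been seen.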
